A study of Caenorhabditis elegans with 4 samples.

Results

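The regions described here are the COH-1 peaks of the X chromosome of Caenorhabditis elegans, 3276 of the 15765 entries of the series list, the peak list that covers the whole series. They were chosen by 1 criterion, that the chromosome given for the entry was X. The same criterion took 598 of 2587 peaks in the list of ChIP replicate 1 and 754 of 3714 in that of replicate 2. The autosomes I to V, set against X, held 12485 series peaks, 1989 peaks of replicate 1 and 2960 of replicate 2, and the remaining 4 series peaks were mitochondrial. The assay was ChIP-seq, chromatin immunoprecipitation followed by sequencing, in which DNA crosslinked to a protein is recovered with an antibody and the places where reads pile up are called as peaks.

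The labels give 2 ChIP samples, made with a rabbit polyclonal antibody against COH-1, and 2 samples of input DNA. All 4 came from hermaphrodites of strain fem-2(b245), genotype fem-2(b245)III, labelled as young adults containing a germline and grown at 20 °C per the series record, so the fem-2 allele was carried by every sample and no wild type was compared. Ground frozen worms were crosslinked for 20 minutes in EGS, which joins proteins, and for 10 minutes more in EGS with formaldehyde. Whole worms were used, so the chromatin came from germline and somatic nuclei together, and the lists do not show which nuclei gave a peak. The labels do not say whether the replicates came from separate cultures. The deposited name of the replicate 2 list also contains the name of another gene, which the labels leave unexplained, and values are therefore given for each list, beside any mean over the replicates. No processed values of the inputs were used here and no list gives reads, so sequencing depth is unknown.

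Cohesin is a ring-shaped complex that holds sister chromatids together and extrudes chromatin into loops. COH-1 is one of several kleisins of this worm, the subunits that close the ring, and other kleisins serve the meiotic chromosomes. The X chromosome of this species has a condensin of its own, part of the dosage compensation complex, which is loaded on both X chromosomes of hermaphrodites at recruitment sites, lowers transcription and folds X into self-interacting domains. Hermaphrodites carry X in the same copy number as the autosomes. The lists say where COH-1 was called along this chromosome, at what width and how closely spaced.

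X was among the chromosomes most densely occupied by COH-1 peaks. In the series list X held 186 peaks per Mb, against 151 on the pooled autosomes, where single chromosomes ran between 122 on V and 191 on III. The replicate 1 list had 33.9 peaks per Mb on X, against 24.1 on the autosomes, and the replicate 2 list 42.7 on X, against 35.9. X made up 17.6% of the nuclear sequence and held 20.8% of the series peaks, 23.1% of the replicate 1 peaks and 20.3% of the replicate 2 peaks. In bases, 11.9% of X and 9.71% of the autosomes lay in series peaks, 10.3% and 7.86% in replicate 1 peaks and 13.5% and 11.3% in replicate 2 peaks. The ratio of X to the autosomes was 1.30 ± 0.15 for peaks per Mb and 1.25 ± 0.08 for bases covered (mean ± SD of the replicate lists, n = 2).

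These differences were of the size seen between single autosomes, since III had more peaks per Mb than X in the series and replicate 2 lists. They were tested with chromosomes as the units, by an exact two-sided permutation of the X label over the 6 nuclear chromosomes, a test that cannot give a p below 0.167. The difference in peaks per Mb between X and the mean of the 5 autosomes gave an exact p of 0.5 for the series list, 0.167 for replicate 1 and 0.667 for replicate 2. For the bases covered the exact p was 0.667, 0.5 and 0.667 in the same lists. No comparison of X with the autosomes reported here can pass the 0.05 threshold, and after Benjamini-Hochberg adjustment each of the 9 series comparisons stood at 0.833.

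**Figure D1:**
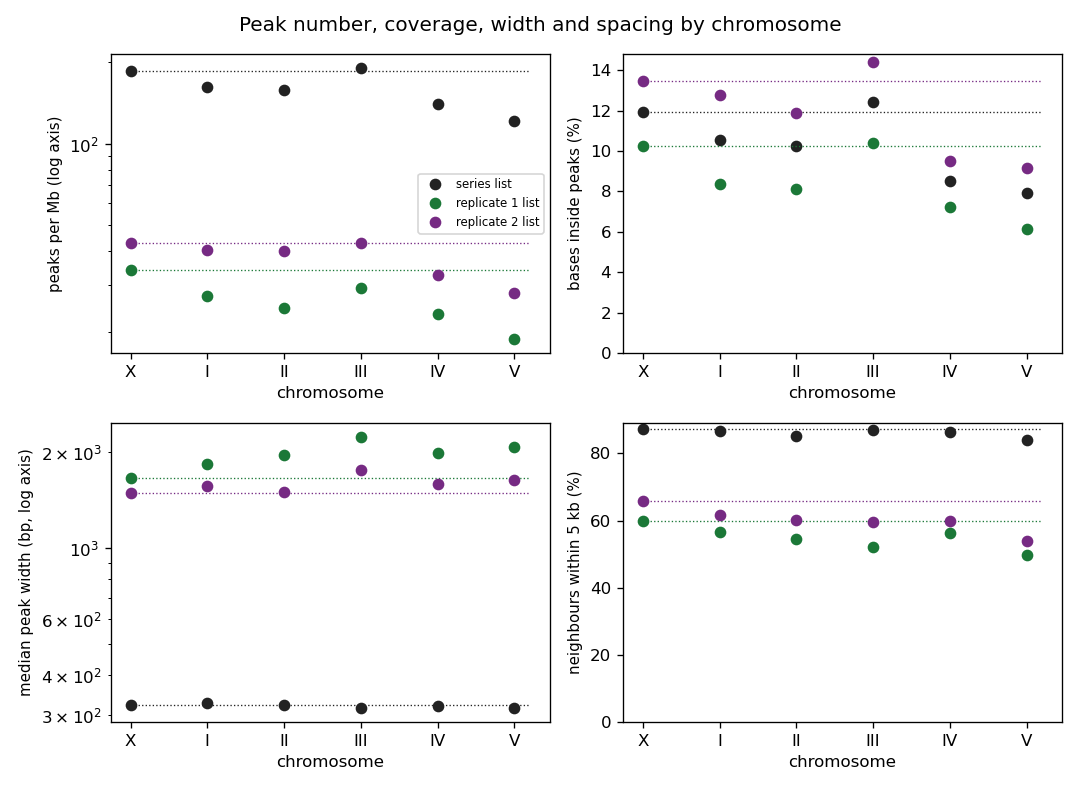
Peaks per Mb, bases inside peaks, median peak width and the share of neighbouring peaks at most 5 kb apart, for X and the autosomes I to V in each of the 3 lists (1 point a chromosome and list; dotted lines carry the X value across). For peaks per Mb, X leads in replicate 1 and follows III in the other lists; it has the lowest median width in both replicate lists and the highest share of close neighbours in all 3.

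Single peaks on X resembled autosomal peaks in width and score in the series list. Their median width was 324 bp, against 321 bp on the autosomes, and the range that left out the lowest and highest 10% was 167 to 1170 bp on X and 165 to 1188 bp on the autosomes. The score of a peak is the authors' own value, with no meaning stated in these sources, and it is used only within 1 list. Its median was 5.47 on X and 5.54 on the autosomes, and the median of X lay inside the range of the single autosomes, 5.21 to 5.77. Higher scores went with wider peaks on X, with Spearman's rho of 0.73 across the 3276 series peaks, 0.85 across the 598 of replicate 1 and 0.90 across the 754 of replicate 2. The autosomes were alike in this, with rho of 0.70, 0.87 and 0.89 in the same lists. These are descriptions across peaks of 1 library or list each, not across samples.

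In the replicate lists, whose peaks were several times wider, the typical X peak was narrower than the typical autosomal peak. The median width in replicate 1 was 1652 bp on X and 2001 bp on the autosomes, and X lay below all 5 autosomes, which ran from 1830.5 to 2230 bp (exact p = 0.167, the smallest possible; 0.4 after adjustment over the 6 comparisons of that list). In replicate 2 it was 1482 bp on X and 1604 bp on the autosomes, which ran from 1498 to 1756 bp (exact p = 0.333; 0.667 after adjustment over 6). The median score in replicate 1 was 135 on X and 156 on the autosomes, and X lay below all 5 (142 to 174, exact p = 0.333). In replicate 2 it was 287 on X and 333 on the autosomes, and X lay within their range, 286.5 to 391 (exact p = 0.5). In replicate 2, 61 X peaks (8.09%) and 312 autosomal peaks (10.5%) shared the score 3100, so the strongest peaks of that list are poorly ordered on all chromosomes.

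The lower median widths on X did not come with fewer very wide peaks. Peaks of 10 kb or more were 6.19% of the X peaks of replicate 1 and 5.23% of its autosomal peaks, and 6.90% on X and 5.98% on the autosomes in replicate 2. They held 31.9% of all bases in X peaks of replicate 1, against 23.8% on the autosomes, and 36.8% against 31.3% in replicate 2. Peaks of 5 to 10 kb were a smaller share on X than on the autosomes, at 6.52% against 11.4% in replicate 1 and 7.82% against 8.58% in replicate 2. In the series list 47 X peaks and 167 autosomal peaks reached 5 kb, or 2.66 and 2.02 per Mb, and they held 20.2% and 17.3% of the bases in peaks.

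COH-1 peaks on X stood close together, in runs separated by long stretches without a peak. In the series list the median gap between neighbours was 457 bp on X and 460 bp on the autosomes, and 87.2% of X neighbours were at most 5 kb apart, against 83.9% to 86.9% on the single autosomes. The replicate lists differed more in this respect. The median gap was 2386 bp on X and 3716 bp on the autosomes in replicate 1, and 1443 bp on X and 2617 bp on the autosomes in replicate 2, where X lay below every autosome in both lists (exact p = 0.333 each). Neighbours at most 5 kb apart made up 59.8% of pairs on X, against 49.7% to 56.5% on single autosomes, in replicate 1, and 65.9% against 54.0% to 61.7% in replicate 2. X had the highest share of the 6 chromosomes in all 3 lists, with an exact p of 0.333 in each.

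**Figure D2:**
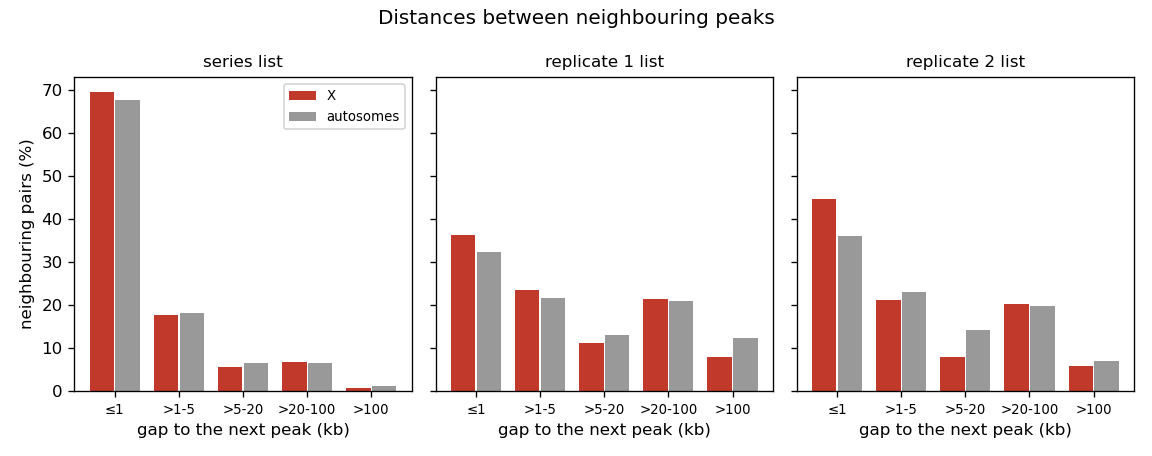
Distances from the end of a peak to the start of the next on the same chromosome, as the share of neighbouring pairs in 5 classes of distance, for X and the pooled autosomes in each list. Gaps of at most 1 kb made up 44.6% of pairs on X and 36.0% on the autosomes in replicate 2, while gaps over 5 and up to 20 kb made up 7.97% and 14.1%.

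Where peaks at most 5 kb apart were joined, the 3276 series peaks of X formed 420 runs, and 139 of these were single peaks. The 134 runs of 10 or more peaks contained 75.5% of the X peaks, against 70.0% of autosomal peaks in such runs. In the replicate lists, with far fewer peaks, runs of 10 or more were rare and took a larger share on X, 7.36% against 2.71% in replicate 1 and 10.5% against 2.91% in replicate 2. These shares rest on few runs, 4 on X and 5 on the autosomes in replicate 1, and 7 on each side in replicate 2. The share on X exceeded that on each autosome in all 3 lists, where the highest autosome had 74.0% (series list), 5.61% (replicate 1) and 8.58% (replicate 2). The exact p was 0.333, 0.167 and 0.167 in these lists, and 0.489, 0.333 and 0.333 after adjustment over the 22 comparisons that were added once values of the lists had been seen. Between runs, the median gap over 5 kb was 23.2 kb on X and 18.3 to 27.3 kb on single autosomes in the series list.

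The run of X with the most peaks in the series list also held the most peaks in replicate 2, and shared that place in replicate 1. In the series list it spanned 63.2 kb at 4475175 to 4538389 and held 60 peaks, which covered 67.2% of it. The replicate 2 list had its own longest run there, 13 peaks from 4474959 to 4538346 with 86.8% of the bases covered. The replicate 1 run was shorter on the left, 12 peaks from 4489931 to 4538063 with 88.7% covered, and a second replicate 1 run, at 16122496 to 16157525, also held 12. The second series run, 47 peaks over 60.1 kb at 13310112 to 13370164, was covered to 75.4% by replicate 1 peaks and to 49.7% by replicate 2 peaks. The third, 42 peaks over 56.2 kb at 15331828 to 15388001, was covered to 71.6% by replicate 1 and 90.6% by replicate 2.

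The longest stretch of X without a peak lay within the range of the single autosomes in each list. The longest stretch of X free of peaks in all 3 lists was 243 kb at 14244710 to 14487979, followed by 192 kb at 1753532 to 1945742 and 191 kb at 1128756 to 1319861. Measured in the same way, the longest stretches of single autosomes ran from 197 kb on III to 462 kb on V. In each replicate list the longest stretch of X was nearly the same, 534 kb at 1531367 to 2065802 in replicate 1 and 533 kb at 1532690 to 2065807 in replicate 2. The longest on single autosomes ran from 370 to 906 kb in replicate 1 and from 310.2 to 853 kb in replicate 2. Stretches over 50 kb without a peak took up 39.3% of X in the series list, against 38.3% to 57.0% of single autosomes. In replicate 1 they took up 68.9% of X, below each autosome (69.7% to 82.2%, exact p = 0.167, the smallest possible), and in replicate 2 61.6% of X, within the autosomal range of 55.7% to 72.9%.

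Along X the number of peaks was then followed in 35 full windows of 500 kb, each peak counted where its midpoint fell. The median window held 91 series peaks, the lowest 28 and the highest 162. The 3 densest windows were 4500001 to 5000000 with 162 peaks, 4000001 to 4500000 with 139 and 6500001 to 7000000, also with 139. Replicate 1 had 36, 26 and 23 peaks in these windows and replicate 2 had 38, 31 and 32, against medians over X of 15 and 21. The 3 sparsest were the first window, 1 to 500000, with 28 peaks, then 1500001 to 2000000 with 32 and 14000001 to 14500000 with 42. Replicate 1 had 3, 6 and 8 peaks there, and replicate 2 had 10, 6 and 9. The 5 densest windows of the series list were also the 5 densest of replicate 2, and 4 of them were among the 5 densest of replicate 1.

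In steps of 1 Mb the series list rose along the left part of X and then alternated. The first 5 steps held 95, 103, 165, 190 and 301 peaks, and the sixth held 204. From the seventh to the twelfth step the number lay between 155 and 227. A second maximum of 248 stood in the fourteenth step, 13000001 to 14000000, and the step after it held 141. The last full step, the seventeenth, held 197, and the remaining 0.642 Mb at the right end held 133 peaks, or 207 per Mb, so the right end of X lacked the low number of the left end. In replicate 1 the highest steps were the fifth with 62 peaks and the fourteenth with 51. In replicate 2 the fifth led with 69, followed by the ninth with 58, and the fourteenth held 49.

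**Figure D3:**
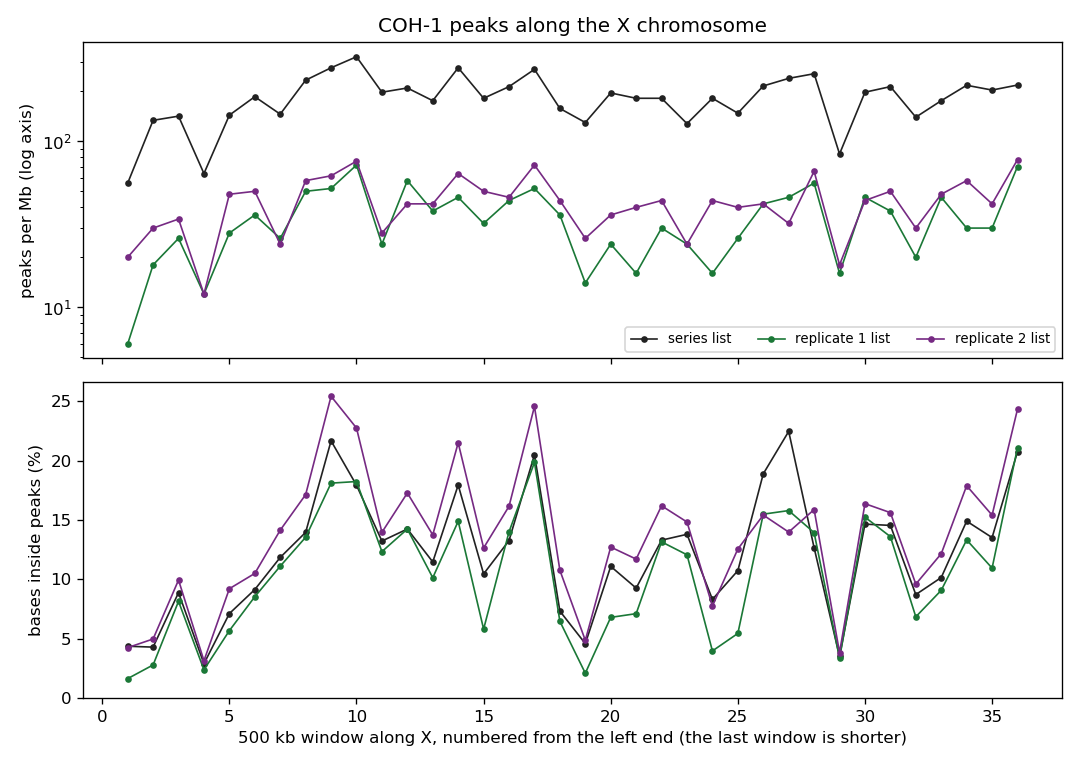
Peaks per Mb on a log axis (top) and the percentage of bases inside peaks (bottom) in 500 kb windows along X, numbered from the left end, for the series list and the replicate 1 and 2 lists. All 3 lists are low in windows 1, 4 and 29 and high in windows 9, 10 and 17, and in windows 26 and 27 the series list covers more bases than either replicate list.

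The windows that were rich in series peaks were rich in replicate peaks. Across the 35 full windows of X, peak number in the series list correlated with that in replicate 1 with Spearman's rho of 0.81 and Pearson's r of 0.85, and with that in replicate 2 with rho of 0.77 and r of 0.86. Between the replicate lists rho was 0.77 and r 0.79 for peak number, and 0.91 and 0.93 for the percentage of bases covered. On single autosomes, rho of series peak number with replicate 1 ran from 0.91 to 0.94, so X was the lowest chromosome. With replicate 2 it ran from 0.76 to 0.93, and only I lay below X. Between the replicate lists, rho of peak number ran from 0.74 to 0.88 on single autosomes, with X inside that range. These are descriptions: the windows behind each value lie on 1 chromosome and share its sequence, and the 3 lists may have ChIP reads in common. Within the series list, peaks per window of X correlated with their median width with rho of 0.34, with the widest peak with rho of 0.43 and with their median score with rho of 0.15. In the 17 full windows of 1 Mb these values were 0.53, 0.46 and 0.28. Median width ran from 249 to 463.5 bp over the full windows, median score from 4.58 to 7.13 and median gap from 251 to 1118 bp. The first window, with the fewest peaks, had the highest median gap and the highest median width.

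Peaks were spread more evenly along X than along any autosome, in all 3 lists. The coefficient of variation of peaks per 500 kb window in the series list was 32.0% on X, against 53.3% ± 8.29 on the autosomes (mean ± SD, n = 5 chromosomes, lowest 42.7% on III). In replicate 1 it was 45.2% on X and at least 53.1% on each autosome, and in replicate 2 it was 35.8% on X and at least 45.7%. The 90th percentile of windows held 2.06 times the peaks of the 10th percentile on X in the series list, against 3.30 to 5.83 times on single autosomes, 3.25 times against 4.92 to 9 times in replicate 1 and 2.63 times against 3.66 to 6.50 in replicate 2. For the coefficient of variation the exact p was 0.167 for the series list, 0.333 for replicate 1 and 0.167 for replicate 2, and 0.333, 0.489 and 0.333 after adjustment over the 22 added comparisons. III had a higher number of series peaks per Mb than X, at 191 against 186, and yet a less even spread. With series peaks in both replicates alone the coefficient of variation was 49.3% on X and 62.3% to 81.8% on single autosomes, while the ratio of the percentiles was 5 on X, inside the autosomal range of 4.08 to 15, so by that measure X was not the most even. The median window of X held 91 series peaks, the highest median of the 6 chromosomes.

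**Figure D4:**
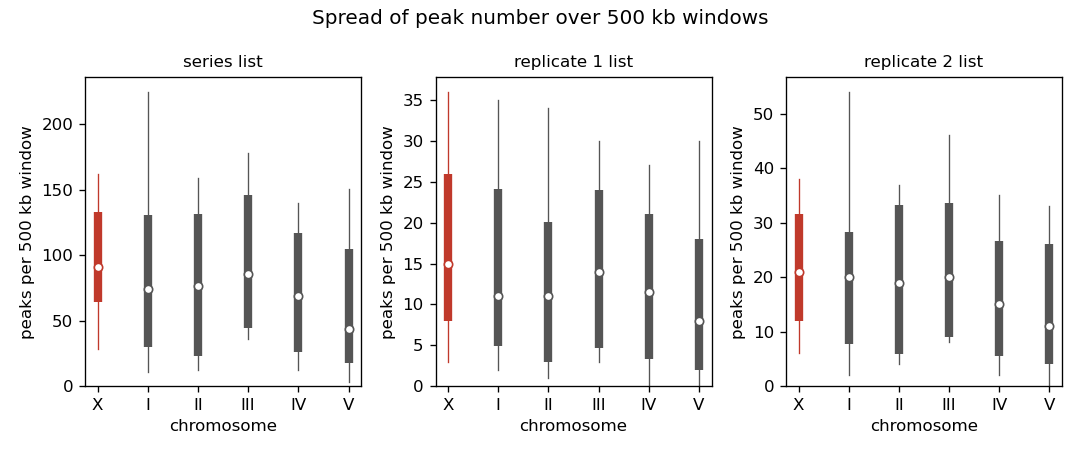
Peaks per 500 kb window on X and each autosome in the 3 lists: the open circle is the median window, the thick bar runs from the 10th to the 90th percentile and the thin line from the lowest to the highest window. On X the lower end of the thick bar is the highest of all chromosomes in each list, at 64.4, 8 and 12 peaks.

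Next, the X peaks of the 3 lists were compared with each other by overlap of at least 1 bp. The lists may have ChIP reads in common, so an overlap is not independent backing of a series peak. Replicate peaks on X were also wider, with medians of 1652 and 1482 bp, against 324 bp in the series list. Of the 3276 series peaks on X, 1265 were overlapped by both replicate lists (38.6%, exact Clopper-Pearson 95% interval 36.9 to 40.3), while over the whole series list this share was 36.2%. Replicate 1 alone overlapped a further 201 (6.14%) and replicate 2 alone 836 (25.5%), which left 974 (29.7%) that no replicate peak overlapped. On the autosomes these shares were 35.5% for both, 6.54% for replicate 1 alone, 30.6% for replicate 2 alone and 27.3% for neither. X had the highest share of the 6 chromosomes both for peaks in both replicates (single autosomes 32.5% to 37.2%, exact p = 0.333) and for peaks in neither (26.1% to 28.5%, exact p = 0.167, 0.333 after adjustment over 22). The order depended on the replicate: replicate 1 overlapped 44.7% of X peaks, against a mean of 42.1% over the 5 autosomes, and replicate 2 overlapped 64.1% on X, against 66.2%. The intervals reflect counting error alone and take no account of the dependence between adjacent peaks.

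The X peaks found in both replicates had a median width of 604 bp and a median score of 8.95, and those found in neither had 219 bp and 4. Autosomal peaks were much the same, at 601 bp and 8.83 for both and 211 bp and 4.02 for neither. The 47 X peaks of 5 kb or more comprised 36 that both replicates overlapped, 8 that 1 replicate overlapped and 3 without any overlap. Of the 167 autosomal series peaks of that width, 113 were overlapped by both replicates and 15 by neither. Most unmatched X peaks lay near a replicate peak: 70.3% of the 974 were within 5 kb of one, against 67.1% on the autosomes. The median distance over all of them was 1855 bp on X and 2019 bp on the autosomes. The share in both replicates differed along X, between 9.89% of the 91 series peaks in the window 11500001 to 12000000 and 54.2% of the 107 in 7500001 to 8000000.

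The higher share on X was seen in the upper 2 of the 4 score classes of the series list, each 25% of it. Of the X peaks in the highest-scoring 25% of the series list, 76.8% (609 of 793) were in both replicates, against 67.3% of autosomal peaks of that class, with single autosomes at 65.5% to 69.2% (exact p = 0.167, the smallest possible; 0.333 after adjustment over 22). In the next class it was 42.8% on X (360 of 842, exact 95% interval 39.4 to 46.2), against 37.8% on the autosomes, and in the 2 lower classes 21.0% against 20.7% and 14.6% against 14.5%. Over these 3 classes together the share was 26.4% on X, inside the range of single autosomes, 22.9% to 26.8%. Of the X peaks in the lowest-scoring 25%, 52.0% were in neither replicate list, against 46.7% on the autosomes.

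Between the replicate lists the direction mattered. Replicate 2 peaks on X were found in replicate 1 more often than those on any autosome, 442 of 754 (58.6%, exact Clopper-Pearson 95% interval 55.0 to 62.2), while the share over the whole replicate 2 list was 51.2% and single autosomes ran from 47.8% to 51.2% (exact p = 0.167, the smallest possible; 0.833 after adjustment over the 9 series comparisons). Replicate 1 peaks on X were found in replicate 2 in 513 of 598 cases (85.8%, 95% interval 82.7 to 88.5), near the 87.1% of the whole replicate 1 list and inside the autosomal range of 85.6% to 89.9%. In bases, 86.8% of the sequence in X peaks of replicate 1 lay inside replicate 2 peaks, against 82.9% on the autosomes, and 66.1% of that in X peaks of replicate 2 lay inside replicate 1 peaks, against 57.8%. Replicate 1 peaks were 1.41 times as dense on X as on the autosomes and replicate 2 peaks 1.19 times. The part of peak density in the result was not tested. On III, I, II and IV replicate 1 peaks stood at 29.1, 27.2, 24.6 and 23.4 per Mb. The share of replicate 2 peaks found there fell in the same order, at 51.2%, 49.2%, 48.5% and 47.8%. V departed from that order, with the lowest replicate 1 density (18.8 per Mb) and 50.2% found.

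By score, the difference in replicate 2 held in each of 4 classes of 25% of the list. In the lowest class 26.2% of X peaks were found in replicate 1, against 16.1% of autosomal peaks, in the second 43.7% against 27.3%, in the third 72.9% against 57.7% and in the highest 97.8% against 94.5%. In replicate 1 the 2 lower classes were found less often on X, at 71.1% against 80.6% and 82.5% against 87.6%, the third at 93.3% against 92.8%, and the highest more often, at 97.7% against 89.0%. Each difference by class is a description of these lists and was not tested.

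**Figure D5:**
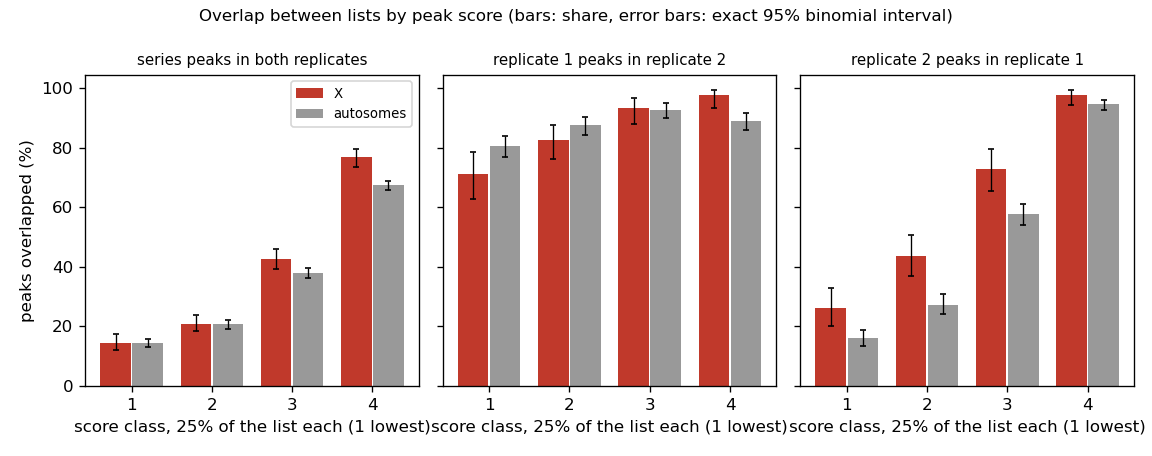
Share of peaks overlapped by at least 1 bp, on X and on the pooled autosomes, by score class (25% of each list, lowest first): series peaks overlapped by both replicates (left), replicate 1 peaks in replicate 2 (middle) and replicate 2 peaks in replicate 1 (right). Error bars are exact 95% binomial intervals. In replicate 2 the X bar is the higher in all 4 classes, and in replicate 1 it is the lower in classes 1 and 2 and the higher in classes 3 and 4.

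Wide peaks of X were matched nearly without exception. All 111 replicate 2 peaks of 5 kb or more on X overlapped a replicate 1 peak, against 412 of 431 on the autosomes, where single chromosomes ran from 93.5% to 98.7% (exact p = 0.167). Of the 76 replicate 1 peaks of that width on X, 73 overlapped a replicate 2 peak (96.1%), against 78.8% to 94.8% on single autosomes (exact p = 0.167). Both values are the smallest p possible, and stood at 0.333 after adjustment over 22. Of the replicate 2 peaks under 5 kb on X, 51.5% were found in replicate 1, against 39.6% to 42.9% on single autosomes (exact p = 0.167). The replicate 1 peaks under 5 kb went the other way, with 84.3% found on X, against 85.5% to 91.1% on single autosomes (exact p = 0.5).

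The 10 X peaks with the highest series score among those in both replicates scored at or above 83.1% of the X peaks of replicate 1 and 73.2% of those of replicate 2, with 1 exception. The first, 15602009 to 15615514 (13506 bp, score 99.1), lay under a replicate 1 peak of 18122 bp with score 2067 and a replicate 2 peak of 19155 bp with score 3100. The second, 16926834 to 16933735 (6902 bp, score 88.5), had 712 in replicate 1 and 3100 in replicate 2. The third, 6731615 to 6754919 (23305 bp, score 75.2), had 1222 and 3069. These were among the upper scores of X in both lists, at or above 89.8% of the X peaks of replicate 1 and 90.7% of those of replicate 2.

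The fourth, 2972236 to 2974635, was only 2400 bp wide in the series list (score 62.4), but sat in a replicate 1 peak of 13551 bp and a replicate 2 peak of 14403 bp, each with score 3100. The sixth was 8009907 to 8029567 (19661 bp, score 59.3), the eighth 6238209 to 6262394 (24186 bp, score 59.2) and the tenth 3815740 to 3834841 (19102 bp, score 54.3). The seventh and ninth, 14824555 to 14827132 and 14814421 to 14820856, were separate in the series list and in replicate 1 but were 1 peak of 14393 bp in replicate 2, score 3100. Such splitting was common: 67.6% of X peaks of replicate 1 and 62.1% of those of replicate 2 overlapped 2 or more series peaks, against 71.6% and 60.5% on the autosomes, and the most in 1 X peak was 19.

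The exception was the widest X peak of the series list, the fifth by score. It spanned 26421 bp at 11460322 to 11486742 with a series score of 60.6. Replicate 1 called 27297 bp there with a score of 227, a value that 66.4% of its X peaks did not exceed. Replicate 2 called 28210 bp with a score of 74.2, which only 7.82% of its X peaks did not exceed. The 5 widest X peaks of the series list, which were all among these 10, differed by at most 6441 bp in width between the 3 lists. The other 4 of these 5 had replicate 2 scores between 1012 and 3069.

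In the highest-scoring 25% of the replicate 1 list, 127 of 130 X peaks and 460 of 517 autosomal peaks overlapped a replicate 2 peak. In that class of replicate 2, 174 of 178 X peaks and 710 of 751 autosomal peaks overlapped a replicate 1 peak. The 3 strongest X peaks of each list without a partner are given next. In replicate 1 the highest-scoring peak without a partner was 15270553 to 15278274 (7722 bp, score 1703), 2541 bp from the nearest replicate 2 peak. The next were 13170407 to 13173429 (score 480), 18 bp from a replicate 2 peak, and 12866034 to 12882531 (16498 bp, score 440), 14136 bp away. In replicate 2 they were 16285322 to 16286967 (score 2089), 22434 bp from the nearest replicate 1 peak, 12435167 to 12439462 (1521), 486 bp away, and 9292173 to 9295699 (1517), 630 bp away. All 6 overlapped series peaks. Of the 6, 3 lay within 1 kb of a peak of the other replicate without touching it.

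The lists differed in the stretch from 12500001 to 13500000, which was singled out after its values had been seen. Series peaks covered 20.7% of it, against 11.4% of the rest of X. Replicate 1 peaks covered 15.6%, against 9.94% of the rest, and replicate 2 peaks 14.7%, against 13.4%. Wide peaks were not fewer in replicate 2: the stretch held 8 of its peaks of 5 kb or more, against 5 in the series list and 5 in replicate 1. Peaks of 10 kb or more numbered 4 in each replicate list and 2 in the series list. Replicate 2 covered more bases than the series list in 32 of the 36 windows of X, the last of them shorter, and both windows of this stretch were among the other 4. All 3 X series peaks of 5 kb or more that neither replicate overlapped lay here, at 12502716 to 12513676, 13139170 to 13149150 and 13156926 to 13164920. So did 2 of the 3 replicate 1 peaks of that width without a replicate 2 partner, at 12866034 to 12882531 and 13343032 to 13365443.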

How the data were processed

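The submitters' processing notes name BWA and ce10, and the lists give coordinates on WormBase WS220, per the file headers. The deposited lists name MACS v2 (series list) and MACS (replicate lists) as the caller. These sources state neither the caller settings, nor how inputs were used, nor whether replicates were pooled. The deposited score of each peak is the authors' value, of unstated meaning.

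From these lists, peak number, width, score, gaps and overlap were computed in Python 3.11.15 (SciPy 1.17.1, pandas 2.3.3, NumPy 2.4.6) with functions tested on simulated data. The last peak end on a chromosome, over the 3 lists, stood for its length. X was compared with the mean of the 5 autosomes by the exact permutation described in the report, on 9 measures of the series list and 6 of each replicate list, and on 22 measures added after values had been seen. P-values do not cover variation between cultures. Alternatives used other overlap rules, score limits, merging, windows and single lists. Named regions are the 10 X peaks of highest series score in both replicates, the 5 widest, the 3 densest and sparsest windows, the 3 longest stretches without peaks and the 3 strongest unmatched peaks of each replicate. Peaks, tests and rules were chosen with earlier results of these data known. Annotation and sequence of this build were not used here, so no peak was assigned to a gene.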

Additional observations from a re-analysis of the deposited data

How the results depend on the processing

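Of 41 alternatives to the comparisons of X with the autosomes, none gave an exact p under 0.05, which the test cannot do, and 5 reversed the direction. The difference in median width, 3.40 bp in the series list, was -55.8 bp with series peaks within 1 kb merged, and ran from -360 to -124 bp with either replicate list alone. The difference in median score, -0.114 in the series list, was 0.145 with series peaks in both replicate lists. The difference in the share found in replicates, 3.07 percentage points for both, ran from -2.04 (replicate 2 alone) to 2.69 (replicate 1 alone). It was 2.94 points where at least 50% of the peak had to be covered. With a reciprocal overlap of 50% it was 0.243 points, as only 2.59% of X peaks then counted as in both, against a mean of 2.35% over the autosomes. The fold between dense and sparse windows of X, 2.06, was 3.02 with the upper 50% of peaks by score, 5.00 with peaks in both replicates, and 2.63 to 3.25 with single replicate lists. The mean rank correlation of the series list with the replicate lists over windows, 0.79, was 0.75 with peaks in both replicates, 0.89 with 1 Mb windows, and 0.77 to 0.81 with single replicate lists. Of all 51 alternatives, 40 kept the direction, or moved a value by less than the spread between the replicate lists. The cause of each change was not tested. No paired analysis was possible because no values of the input samples were used and each comparison lies within a list. Read depth is unknown, so weak peaks missing from a list cannot be read as absent.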
